A study of Mus musculus with 2 samples.

Results

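The genes described here run the cell division cycle: 48 genes for cyclins and their kinases, kinase inhibitors, the RB and E2F regulators, the replication machinery and mitosis. They were chosen by gene symbol, and all probe sets annotated to 1 of those symbols and to no other gene were read. Such probe sets were found for 47 of the 48, out of 18193 genes in all. The cyclin gene Ccnb1 had none of this kind and was not analysed here. Expression was measured in HT22 cells, a line of mouse hippocampal origin, on Affymetrix mouse whole-genome GeneChips. The cells were grown in DMEM with 10% FCS. One culture received J147, a neurotrophic compound, for 1 h and the other received the DMSO vehicle for 1 h, with 1 array each. The title of the control sample names DMSO, while its treatment label reads untreated. The labels give the J147 concentration as 10 mM, and the unit in the methods is μM instead. As each condition has 1 array, the differences are without replicates or p-values, and an effect of J147 and a difference between the 2 cultures cannot be told apart.

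The D-type cyclins with Cdk4 and Cdk6, and then the E-type cyclins with Cdk2, phosphorylate the RB proteins in G1. This releases the E2F factors, which switch on the genes of DNA replication. Genes of mitosis come on later, in G2, when the DREAM repressor complex gives way to activators that act through CHR and CCAAT elements. A growth factor signal reaches Ccnd1 within hours, while a passage through the whole cycle takes far longer than the exposure used here. After that exposure most of these genes had nearly the same level with J147 as with vehicle. Of the probe sets above an intensity filter, 64.0% of theirs and 62.8% of all differed by at most 0.1 log2 units. By these shares, which are not matched for level, this closeness was not particular to these genes. The values farthest from 0 were 1 of 2 Cep55 probe sets, at a log2 difference of 1.12, a Cdk6 probe set, at 0.58, and 2 probe sets of Ccnd1, at 0.42 and 0.44.

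E2F, CCAAT and CHR elements were looked for in the promoters of these genes, and 5 promoters are shown because their genes recur in the results. The 300-base windows run from 250 bases before to 50 after the RefSeq start and read along the gene on GRCm38.p6. Capitals mark E2F motifs (TTTCCCGC, TTTCGCGC, TTTGCCGC or TTTGGCGC), the CCAAT box (CCAAT) and the CHR (TTTGAA), each on either strand. Motifs can overlap, as the E2F motifs of both strands do in Mcm5. For Cep55 the first of 2 overlapping windows is shown.
Mcm5 promoter, chr8:75109259-75109558, plus strand: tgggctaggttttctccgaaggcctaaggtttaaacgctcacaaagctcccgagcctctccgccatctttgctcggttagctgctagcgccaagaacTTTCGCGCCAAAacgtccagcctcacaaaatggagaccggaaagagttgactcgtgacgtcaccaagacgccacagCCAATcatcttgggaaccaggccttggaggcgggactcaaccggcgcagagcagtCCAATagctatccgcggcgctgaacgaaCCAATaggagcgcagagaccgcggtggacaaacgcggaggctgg
Cdc25a promoter, chr9:109875329-109875628, plus strand: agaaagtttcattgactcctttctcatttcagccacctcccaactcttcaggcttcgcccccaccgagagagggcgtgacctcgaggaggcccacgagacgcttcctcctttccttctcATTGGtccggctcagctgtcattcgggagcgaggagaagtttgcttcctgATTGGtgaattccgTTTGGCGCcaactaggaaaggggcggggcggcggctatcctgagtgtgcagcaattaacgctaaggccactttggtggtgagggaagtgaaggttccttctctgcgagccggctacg
Cdk1 promoter, chr10:69352863-69353162, minus strand: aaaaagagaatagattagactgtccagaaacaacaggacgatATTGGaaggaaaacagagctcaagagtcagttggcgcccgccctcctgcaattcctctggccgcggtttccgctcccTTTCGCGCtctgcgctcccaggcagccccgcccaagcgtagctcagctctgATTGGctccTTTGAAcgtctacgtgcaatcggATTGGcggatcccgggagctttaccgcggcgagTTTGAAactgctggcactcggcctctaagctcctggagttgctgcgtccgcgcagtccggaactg
Kif11 promoter, chr19:37376132-37376431, plus strand: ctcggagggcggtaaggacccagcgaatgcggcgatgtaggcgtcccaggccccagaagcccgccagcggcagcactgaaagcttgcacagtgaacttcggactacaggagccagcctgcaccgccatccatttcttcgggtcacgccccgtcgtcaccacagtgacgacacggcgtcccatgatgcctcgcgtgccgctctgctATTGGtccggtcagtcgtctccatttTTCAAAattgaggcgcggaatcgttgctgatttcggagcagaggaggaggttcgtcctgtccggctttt
Cep55 promoter, chr19:38054734-38055033, plus strand: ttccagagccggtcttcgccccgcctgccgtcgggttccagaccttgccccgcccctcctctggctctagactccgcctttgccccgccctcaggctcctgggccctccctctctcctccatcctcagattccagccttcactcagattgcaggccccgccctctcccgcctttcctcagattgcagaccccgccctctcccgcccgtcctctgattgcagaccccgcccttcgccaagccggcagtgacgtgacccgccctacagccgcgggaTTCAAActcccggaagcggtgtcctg

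Of the 48 genes, 36 had a promoter in the RefSeq table. An E2F motif was found in 4 of 6 replication genes (66.7%), Mcm3, Mcm5, Mcm6 and Mcm7, and in 2 of 14 mitotic genes (14.3%), which were Cdk1 and Cdc25a. It was found in 2.6% of the 27025 genes with a promoter sequence. The CHR showed the reverse order, with 10 of 14 mitotic genes (71.4%) and 1 of 6 replication genes (16.7%), against 20.2% of all genes. A CCAAT box and a CHR in the same window were present in 9 of 14 mitotic genes (64.3%), such as Kif11 and Cdk1, and in 7.97% of all genes. The CCAAT box, with or without a CHR, was not particular to mitotic genes. It was found in 13 of 14 of them (92.9%), 6 of 6 replication genes and 3 of 3 kinase inhibitor genes, against 41.1% of all genes. Of the 8 RB and E2F genes with a promoter, 4 (50%) held an E2F motif, 4 (50%) a CHR and 3 (37.5%) a CCAAT box with a CHR. A match is a run of letters and not a measured binding site. The sequences come from the reference and say nothing of these cultures.

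**Figure D1:**
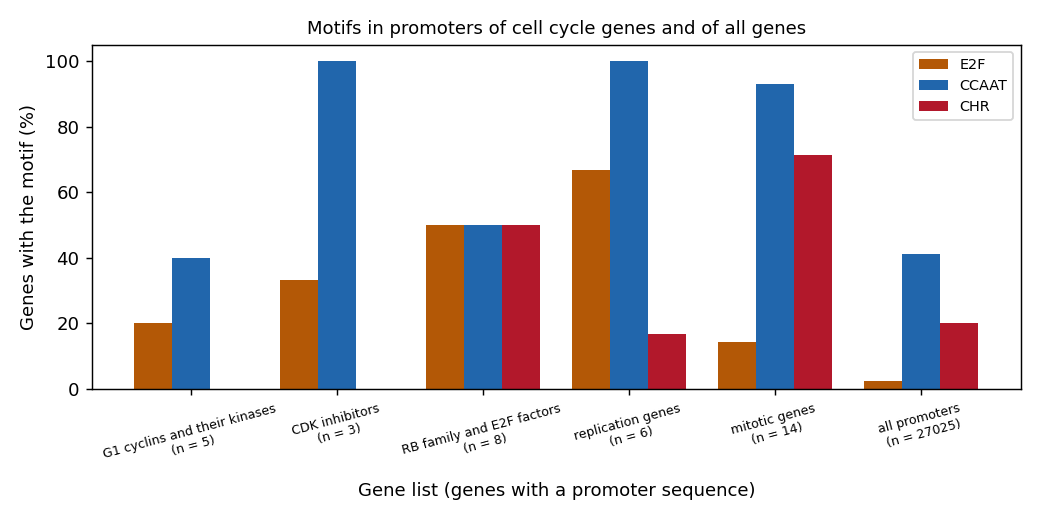
Share of genes (vertical axis, percent) in each list (horizontal axis, number of genes with a promoter sequence in parentheses) that hold an E2F, CCAAT or CHR motif within 300 bases at the start. E2F motifs reach 66.7% in replication genes and the CHR reaches 71.4% in mitotic genes, against 2.6% and 20.2% of all genes.

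The deposited values are log2 intensities, and 2.234 was the lowest value of the table, with 46.3% of the probe sets for vehicle and 46.0% for J147 within 0.01 of it. Values there have no order. The intensities of both arrays were scaled to a common median of 100, and a probe set was scored where the mean of both arrays was above 100, which left 22545 probe sets. A difference is always log2 J147 minus vehicle after this scaling, which moves the deposited difference by -0.00459. A probe set with 1 identical value on both arrays is therefore given as -0.00. Over all scored probe sets the SD of the difference was 0.18 and the central 95% lay between -0.39 and 0.38. The control probe sets for 18S rRNA differed by a median of -0.63, and their part in the results was not tested. Of 8 neuron markers 6, Map2 and Snap25 among them, were at the lowest value in both cultures, and Tubb3 and Gap43 were above it. All 7 fibroblast markers were scored.

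Most of the cell cycle genes lay well above the lowest value in both cultures on their brightest probe sets. Of their 106 probe sets 89 were scored, against 22545 of all 45037, and these 89 belonged to 43 genes. The lowest value scales to 95.4 for vehicle and 95.1 for J147, just under the filter of 100. Some scored probe sets therefore lay near it, such as 1459658_at of Mcm5 at 2.45 on both arrays. The proliferation marker Mki67 had log2 intensities of 11.8 on both arrays. Top2a, the topoisomerase that untangles replicated DNA, had 12.9 on both, and Pcna, the sliding clamp of DNA polymerase, had 13.97 and 14.03. The remaining 4 genes, the kinase inhibitors Cdkn1c and Cdkn2a and the factors E2f4 and E2f6, had every probe set at the lowest value in both cultures. A difference in them could not be seen, and their mRNA may still have been present.

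**Figure D2:**
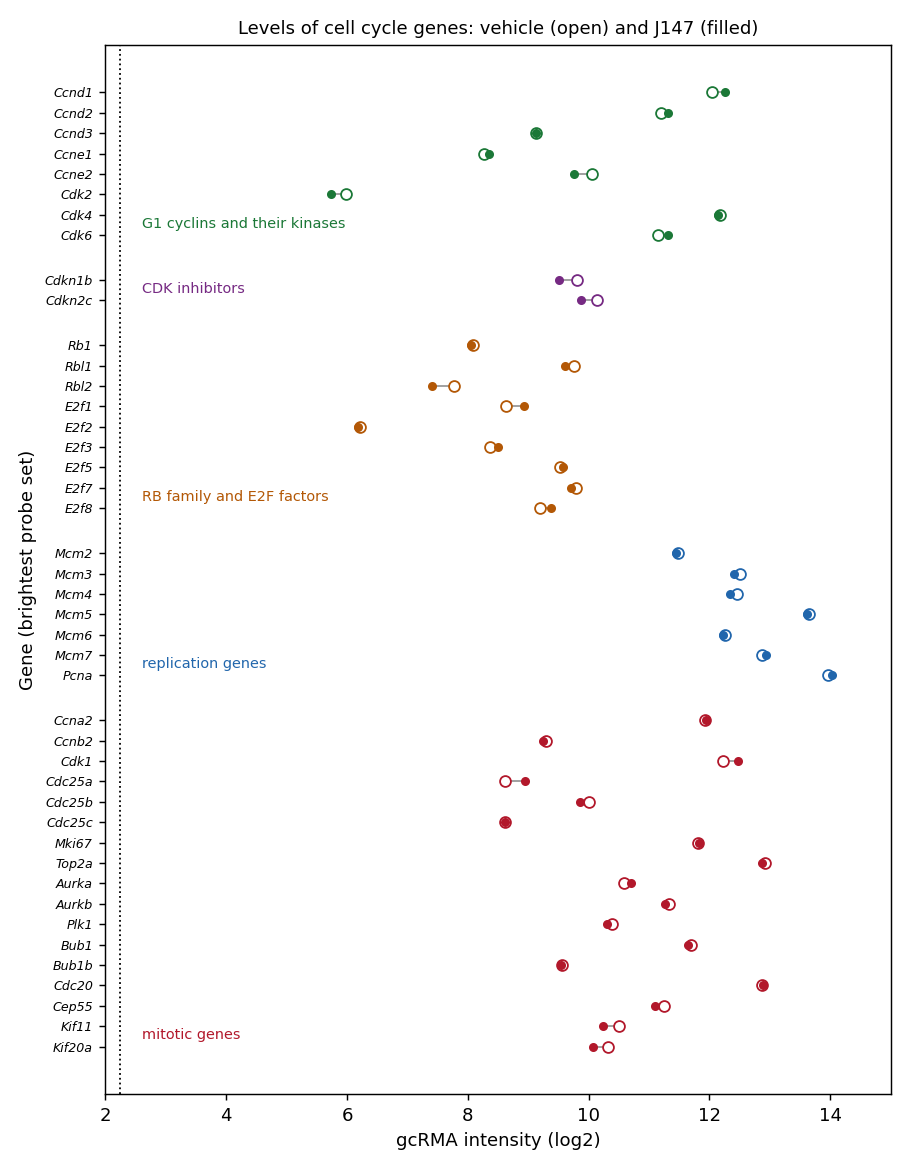
Deposited gcRMA intensity on the log2 scale (horizontal axis) of the brightest probe set of each scored gene (vertical axis) for vehicle (open circles) and J147 (filled circles), with 1 array per condition. Grey lines join both values of a gene, colours mark the lists, and the dotted line marks 2.234, the lowest value. Most pairs of circles overlap, and Rbl2, Cdc25a, Cdkn1b and Ccne2 have the longest lines. Levels of different genes are not comparable, since probe sets differ in affinity.

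Read from the brightest probe set of each gene, none of the 43 was 1.5-fold higher or lower on the J147 array, against 0.556% and 0.81% of all 10611 scored genes. Over probe sets, 1 of 89 was at least 1.5-fold higher with J147, a probe set of Cep55, and none was 1.5-fold lower. The background over all scored probe sets was 0.856% higher and 0.781% lower, so these counts are near it. At a lower threshold of 0.32 log2 units, 5 of 89 (5.62%) were higher and 2 of 89 (2.25%) were lower, against 3.5% and 3.94% of all scored probe sets. The 5 belonged to Ccnd1, which had 2, and to Cdk6, Cdc25a and Cep55, and the 2 belonged to Rbl2 and Kif11. Differences of at most 0.1 in size made up 64.0% of the scored probe sets of these genes and 62.8% of all. Levels were not matched here, as the median log2 level was 10.3 for the 43 genes and 8.33 for all scored genes. Identical values made up 11.2% of the scored probe sets of these genes and 18.9% of all. At levels of 9 or more the SD of the difference was 0.15 for their probe sets and 0.13 for all. The median log2 difference of the 43 genes was -0.04, and that of all scored genes was -0.00. In bulk RNA, a shift of cells between phases of the cycle and a change of mRNA per cell cannot be told apart.

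**Figure D3:**
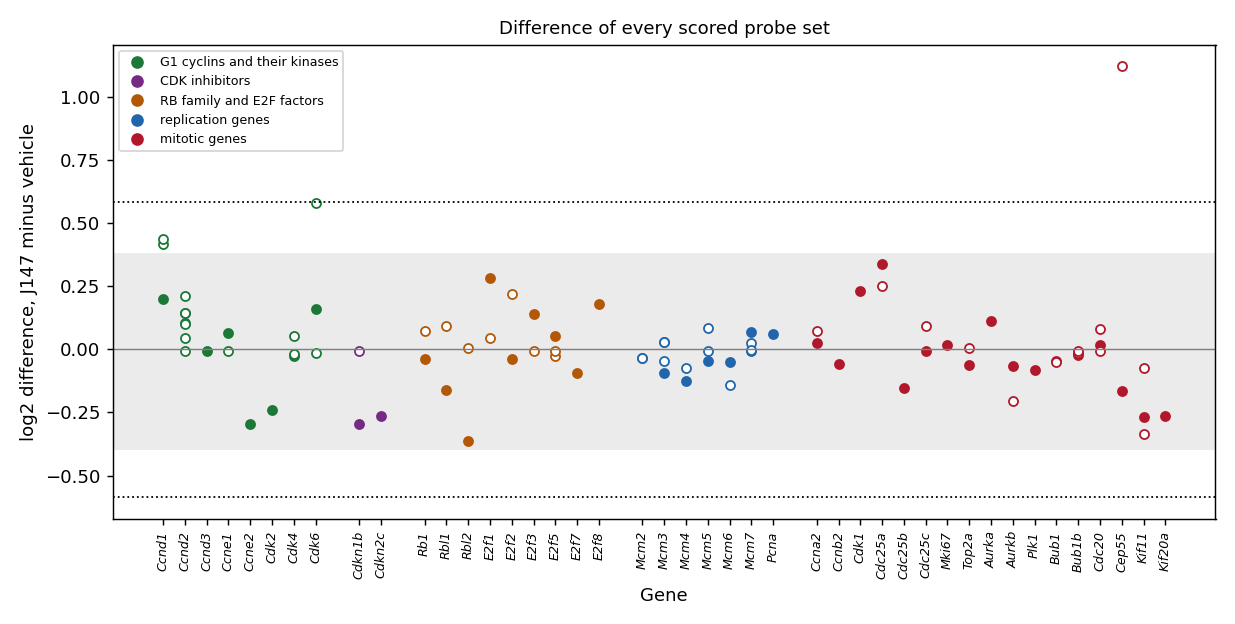
Log2 difference, J147 minus vehicle (vertical axis), of each scored probe set by gene (horizontal axis), with filled circles for the brightest probe set of a gene, open circles for the others and colours for the lists. Grey shading is the central 95% of all scored probe sets, -0.39 to 0.38, and dotted lines mark 1.5-fold. A Cep55 probe set at 1.12 stands above the upper dotted line, and a Cdk6 probe set at 0.58 lies just under it.

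The D-type cyclin Ccnd1, which couples growth factor signals to the cell cycle, was higher with J147 on all 3 of its probe sets. Probe set 1417420_at had log2 intensities of 12.05 with vehicle and 12.25 with J147, a difference of 0.20. Probe set 1417419_at went from 11.15 to 11.57, a difference of 0.42, and 1448698_at from 10.92 to 11.36, a difference of 0.44. The brightest of them was the least different. Of the 58 scored probe sets of cell cycle genes at a mean log2 level of 9 or more, 2 (3.45%), both of Ccnd1, were at least 0.32 higher and none was that much lower, against 1.22% and 0.961% of all scored probe sets at those levels. Both read 1 mRNA and are not independent.

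Ccnd2, the second D-type cyclin, had 7 scored probe sets. Its differences ran from -0.00 on 1416124_at, with 1 deposited value on both arrays, to 0.21 on 1448229_s_at, and the brightest, 1434745_at, had log2 intensities of 11.20 and 11.31. Ccnd3 was identical on both arrays at 9.12. Among the kinases that these cyclins activate, Cdk4 had differences from -0.03 to 0.05 over 3 probe sets. Cdk6 had log2 intensities of 11.15 with vehicle and 11.31 with J147 on its brightest probe set, a difference of 0.16, and -0.01 on the next. Its probe set 1460291_at, near the lowest value, went from 3.34 to 3.93, a difference of 0.58. That is a fold of 1.497, close to but under 1.5.

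The E-type cyclins, which bring in Cdk2 at the start of S phase, gave differences of -0.30 and 0.07 on their brightest probe sets. Ccne2 had log2 intensities of 10.06 with vehicle and 9.76 with J147, a difference of -0.30. Ccne1 had 8.28 and 8.35, a difference of 0.07, and -0.00 on its other probe set. Cdk2, at 5.98 and 5.74, had a difference of -0.24. Over the 8 G1 cyclins and kinases the median was 0.03. Of these genes 4 (50%) were over 0.05 higher and 2 (25%) over 0.05 lower, against 23.8% and 32.4% of all scored genes.

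Of the 4 inhibitors of these kinases among the 48 genes, 2 were scored, and neither passed 0.32 log2 units in either direction. The inhibitor Cdkn1a is outside the 48 genes and is described with the further lists below. It was lower with J147, with differences of -0.74 and -0.69. Cdkn1b, p27, which holds cyclin E and Cdk2 inactive, had log2 intensities of 9.80 with vehicle and 9.51 with J147, a difference of -0.30. Its other probe set was near the lowest value, with 2.33 on both arrays and a difference of -0.00. Cdkn2c, p18, an inhibitor of Cdk4 and Cdk6, had 10.14 and 9.88, a difference of -0.26. Both differences lay inside the central 95% of all scored probe sets, and 4.73% and 6.03% of these were at least as far below. The median of these 2 scored genes of 4 was -0.28, or -0.13 with no filter on intensity, which adds Cdkn1c and Cdkn2a at the lowest value.

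The RB family and the E2F factors lay on both sides of 0. Rbl2, the p130 pocket protein that binds E2F in resting cells, had log2 intensities of 7.77 with vehicle and 7.41 with J147 on its brightest probe set, a difference of -0.36. Its other probe set, 1418146_a_at, had 4.63 and 4.64, a difference of 0.01. Rbl1, p107, had -0.16 on its brightest probe set and 0.09 on the other scored one. Rb1 had 8.08 and 8.05, a difference of -0.04.

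E2f1, an activator that RB restrains, had log2 intensities of 8.64 with vehicle and 8.93 with J147 on 1417878_at, a difference of 0.28. On 1431875_a_at it had 7.90 and 7.95, a difference of 0.05. The activator E2f3 had a difference of 0.14 on its brightest probe set. E2f2, also an activator, had -0.04 on its brightest probe set and 0.22 on the other. Of the atypical repressors, E2f8 had 9.19 and 9.38, a difference of 0.18, and E2f7 had -0.09. E2f5, a partner of the pocket proteins, ran from -0.02 to 0.05. Of the 9 scored genes 4 (44.4%) were over 0.05 higher and 3 (33.3%) over 0.05 lower, against the same 23.8% and 32.4% of all scored genes. Their median was -0.04, but 0.02 with probe sets averaged per gene and 0.0068 without probe sets whose names end in _x_at, _s_at or _a_at, so it has no settled sign.

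The replication genes lay close to 0 on their brightest probe sets. Mcm2 to Mcm7 encode the helicase that opens DNA at origins and forks. Their brightest probe sets ran from -0.13 for Mcm4, at 12.46 for vehicle and 12.34 for J147, to 0.07 for Mcm7, at 12.87 and 12.94. The brightest Mcm5 probe set had 13.65 and 13.61, a difference of -0.04, and Mcm5 is the gene whose promoter above has E2F motifs on both strands. Pcna had a difference of 0.06. Over the 7 genes the median was -0.04, and 3 of 7 (42.9%) were within 0.05 of 0, against 43.9% of all scored genes.

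Cdc25a and Cdk1 had the highest values among the mitotic genes read from their brightest probe sets. Cdc25a is the phosphatase that removes inhibitory phosphates from Cdk2 and Cdk1. It is listed with the mitotic genes here, though through Cdk2 it also acts before mitosis. It had log2 intensities of 8.61 with vehicle and 8.95 with J147 on 1417132_at, a difference of 0.34. On 1417131_at it had 8.07 and 8.33, a difference of 0.25. Both were higher with J147, while the remaining probe set was at the lowest value in both cultures. Of the other family members, Cdc25b had -0.15 on its brightest probe set, and Cdc25c had -0.00 on its brightest and 0.09 on the other, at 7.59 and 7.68. Cdk1, the kinase of mitotic entry, had 12.23 and 12.47, a difference of 0.23, while its partners Ccna2 and Ccnb2 had 0.03 and -0.06.

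Kif11, the kinesin that pushes spindle poles apart, was lower with J147 on all 3 probe sets. Probe set 1435306_a_at had log2 intensities of 10.50 with vehicle and 10.24 with J147, a difference of -0.27. Probe set 1452314_at had 8.70 and 8.37, a difference of -0.33, and 1452315_at had 5.93 and 5.87, a difference of -0.07. Kif20a, a kinesin of the central spindle, had 10.33 and 10.07, a difference of -0.27.

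Aurkb, the kinase of the chromosomal passenger complex, had -0.07 and -0.21, whereas the centrosomal kinase Aurka had 0.11. Plk1, a kinase of mitotic progression, had -0.08. The checkpoint kinases Bub1 and Bub1b and the APC/C activator Cdc20 had -0.04, -0.02 and 0.02 on their brightest probe sets. Mki67 had 0.02 and Top2a -0.06. Of the 17 scored mitotic genes 3 (17.6%) were over 0.05 higher and 8 (47.1%) over 0.05 lower, where all scored genes had 23.8% and 32.4%. Their median was -0.04, and 0.0064 when probe sets whose names end in _x_at, _s_at or _a_at were left out.

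Cep55, a midbody protein needed for the final separation of daughter cells, had 2 probe sets that went opposite ways. Probe set 1452242_at had log2 intensities of 11.25 with vehicle and 11.09 with J147, a difference of -0.16. Probe set 1453683_a_at had 4.12 and 5.25, a difference of 1.12, or scaled intensities of 353 and 769, 2.18-fold higher with J147. That put it at place 9 from the top of the 22545 scored probe sets, of which 17 (0.0754%) were at least 2-fold higher and 16 (0.071%) at least 2-fold lower.

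The range over the probe sets of Cep55 was 1.29 log2 units. The next largest ranges among the 29 genes with more than 1 scored probe set were 0.60 for Cdk6 and 0.37 for Rbl2, and the median range was 0.11. Of all 5194 genes with more than 1 scored probe set, 4 (0.077%), with Cep55 counted, had a range at least as large, and the median range of all was 0.14. The members, Cep55 among them, were chosen with earlier results of these data known. This share and the place of its probe set given above are therefore not independent results. At mean log2 levels from 4 to 6, where 1453683_a_at lies, the SD of the difference was 0.24, against 0.13 at levels of 9 or more. At those lower levels, J147 was at least 1.5-fold higher for 2.08% and at least 2-fold higher for 0.205%. The suffix _a_at marks a probe set designed to several transcripts of 1 gene, and which Cep55 transcript either probe set read was not tested.

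**Figure D4:**
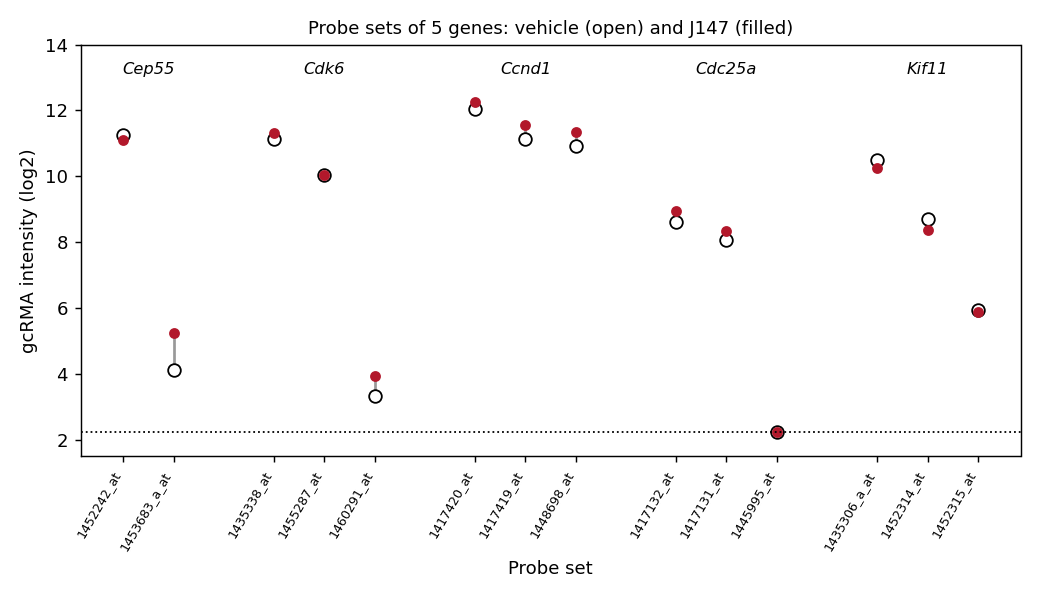
Log2 gcRMA intensity as deposited (vertical axis) for the probe sets (horizontal axis) of Cep55, Cdk6, Ccnd1, Cdc25a and Kif11 for vehicle (open circles) and J147 (filled circles), with 1 array per condition. Grey lines join both values of a probe set and the dotted line marks 2.234, the lowest value. The longest lines, 1453683_a_at of Cep55 and 1460291_at of Cdk6, are at 4.12 and 5.25 and at 3.34 and 3.93. Levels of different probe sets are not comparable.

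Probe sets of 1 gene read the same RNA and are not replicates of the treatment, but they show where a difference was seen more than once. Of the 29 genes, 2 (6.90%) had all scored probe sets over 0.05 higher with J147, Ccnd1 and Cdc25a. This held for 7.82% of all genes with more than 1. All were over 0.05 lower in 3 of the 29 (10.3%), Kif11, Aurkb and Mcm4, against 9.97% of all such genes. Both shares are near the background.

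Other genes of the same pathways were read from 4 further lists. These lists were chosen with earlier results of these data known, so their shares are not an independent result. Of 23 scored other cyclins, CDKs and inhibitors read from the brightest probe set, 2, Ccng2 and Cdkn1a, were lower by 1.5-fold or more with J147 and 0 were higher, against 0.81% and 0.556% of all scored genes. Over all 58 scored probe sets of these genes 5 (8.62%) were lower and 1 (1.72%) was higher, against 0.781% and 0.856% of all scored probe sets. The 5 were 2 of Ccng2, 2 of Cdkn1a and 1 of Ccnf, and the higher 1 was of Cdk13. The 2 of Ccng2 read the same RNA, as do the 2 of Cdkn1a, and are not independent. Ccng2, the unconventional cyclin G2, had log2 intensities of 7.04 with vehicle and 5.78 with J147, a difference of -1.26. Its other probe set was near the lowest value, at 2.85 and 2.26, a difference of -0.59. Cdkn1a, p21, which inhibits the kinases of several cyclins, had 11.61 and 10.88 on 1 probe set and 10.84 and 10.15 on the other, differences of -0.74 and -0.69. Ccnf, cyclin F, had -0.74 on 1443807_x_at, at 8.12 and 7.39, and -0.38 on its brightest probe set. Cdk13, a kinase of transcription, had 0.60 on 1440833_at, at 5.83 and 6.43, and -0.03 on its brightest. Probe sets that passed only outside the brightest were named after their values were seen.

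Of 12 partners of RB and E2F and other cell cycle factors, 0 were 1.5-fold higher on the brightest probe set and 1 was that much lower. The shares of all scored genes were 0.556% and 0.81%. The lower one was Mybl1, a MYB family factor. It had log2 intensities of 7.62 and 6.87, a difference of -0.75, and 0.03 on its second probe set, at 3.76 and 3.79. Over the 23 scored probe sets of these genes, that of Mybl1 was the 1 that passed (4.35%). Of all scored probe sets 0.781% were that much lower and 0.856% that much higher.

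Of 36 other replication genes 0 were 1.5-fold different on the brightest probe set, against 0.556% higher and 0.81% lower of all scored genes. The clamp loader subunit Rfc3 was farthest from 0 there, at 0.28, with 0.02 on its other probe set. Over the 69 scored probe sets of this list 1 (1.45%) was 1.5-fold higher, against 0.856% of all scored probe sets. It was 1439208_at of the checkpoint kinase Chek1, at 6.02 and 6.64, a difference of 0.62. The brightest Chek1 probe set had -0.02. Of 39 other mitotic genes 0 were 1.5-fold different on the brightest probe set, against the same shares of all scored genes. The kinesin Kif18a was farthest from 0 there, at 9.27 and 8.94, a difference of -0.33. Over the 88 scored probe sets of this list 1 (1.14%) was 1.5-fold higher, against the same 0.856%. It was 1429871_at of Hmmr, a protein of the spindle, at 4.69 and 5.36, a difference of 0.67. The brightest Hmmr probe set had -0.04. In both lists 0 probe sets were 1.5-fold lower, against 0.781% of all scored probe sets, so the counts of both are near the background. The medians of the 4 lists were -0.03, -0.00, 0.01 and -0.04. Of the 39, 18 (46.2%) were over 0.05 lower and 3 (7.69%) over 0.05 higher, against 32.4% and 23.8% of all scored genes.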

How the data were processed

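RNA of 2 HT22 cultures, 1 with J147 and 1 with vehicle, was measured on 1 array each. The log2 intensities deposited by the authors came from gcRMA in R, and Affymetrix Expression Console version 1.0 is also listed in the submitters' processing notes. The sources used here do not give the gcRMA version. Probe sets with 1 gene symbol were used, and symbols were updated through the Entrez number to RefSeq GRCm38.p6. Intensities were scaled to a median of 100 per array, leaving out the 64 controls, and scored where the mean exceeded 100. A gene was read from its brightest scored probe set. The members and lists were chosen with earlier results of these data known. Genes named outside the 48 are those at least 1.5-fold different in a list, or else its largest difference. Values given in full are those at least 1.5-fold different, the 2 largest differences of each list and all Cep55 probe sets, plus others picked after their values were seen. Alternatives were the deposited scale, quantile normalization, a lowess curve (span 0.3), a pseudocount of 50, and other filters, thresholds and ways to combine probe sets. Calculations used Python 3.11.15 with numpy 2.4.6, pandas 2.3.3, statsmodels 0.14.6 and matplotlib 3.10.9, and were tested on simulated data. Having 1 array per group limits the precision of all values, and no test between groups was possible.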

Additional observations from a re-analysis of the deposited data

How the results depend on the processing

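Across the alternatives 272 values were computed. Of these, 260 stayed within 1.5 times of the reported count, within the SD of 0.18 for single genes and the Cep55 range, or within the SE over the genes of a list for its median. The other 12 moved, and none of the 160 values for single genes or probe sets changed sign. Some of the 160 could not change, as averaging leaves a gene with 1 scored probe set as it was. The other intensity filters likewise left the single genes unchanged. The probe sets at least 1.5-fold higher numbered 2 with the values as deposited, 2 with quantile normalization and 2 with the lowess curve, where the Cdk6 probe set also passed, and 5 at the threshold of 0.32 log2 units. Those lower numbered 2 at that threshold. The median of the CDK inhibitors was -0.13 with no filter and -0.21 with probe sets averaged per gene. Some list medians changed sign. Except for the mitotic genes, these changes count among the 260, because the SE over the genes of the list exceeded the median itself. That SE is over genes and does not measure a spread between cultures. Without suffixed probe sets (_x_at, _s_at, _a_at) the median of the mitotic genes was 0.0064, that of the RB and E2F genes 0.0068, and that of the other replication genes turned from 0.01 to -0.0046. With probe sets averaged the RB and E2F median was 0.02. The median of the RB and E2F partners, -0.0046, was 0.0075 with quantile normalization and 0.01 with the lowess curve. Single genes that moved were Rbl2 (-0.18), Ccng2 (-0.93) and Mybl1 (-0.36) with probe sets averaged, and Rfc3 (0.02) without suffixed ones. The Cep55 range ran from 1.19 with a pseudocount of 50 to 1.31 with the lowess curve. Leaving out identical values and a filter 1 log2 unit above the lowest value were chosen after seeing the data. No paired analysis was possible because each group has 1 array. Probe sets at the lowest value of the table can show no difference.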
